A study of Mus musculus with 24 samples.

Results

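The comparison described here sets the quadriceps of wild-type (WT) mice after 1 month of forced downhill running, at 8 weeks of age, against that of sedentary WT mice at 4 weeks. It rests on 5 of the 24 polyadenylated RNA libraries of the study, 2 from run WT mice and 3 from sedentary WT mice, which were chosen by their labels alone. All mice were C57BL/6. None of the WT mice received a vector. The study's other genotypes were delEx44 DMD and corrected-delEx44 DMD. The delEx44 DMD mouse is a model of Duchenne muscular dystrophy that lacks exon 44 of the dystrophin gene Dmd. Corrected mice received AAV9 vectors for SpCas9 and a guide RNA at postnatal day 4. In the corrected groups used here, the dose was 8e13 vector genomes per kg for each vector. The study also held sedentary groups of an older age, whose WT libraries are used below as a description. Running began at 1 month of age on a 15 degree decline at 12 m/min, on alternate days. No WT group was sedentary at 8 weeks or run at 4 weeks, so running and 4 weeks of growth cannot be told apart in any value below. The libraries are called sedentary 1, 2 and 3 and run 1 and 2. The labels do not say how many mice each library came from, so each p-value rests on the spread between libraries. That spread was estimated jointly over 15 libraries in 6 groups, which include these 5 and those of the other genotypes.

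Four-week-old mouse muscle is still growing. Its fibres add nuclei by fusion of satellite cell progeny, replace fetal protein isoforms with adult ones, and are surrounded by a connective tissue in which collagen is being made. Imprinted growth genes are expressed from 1 parental copy and are switched down after birth in many tissues. Downhill running lengthens active muscle under load (eccentric contraction), which strains sarcomeres and the fibre membrane. Dystrophin links the actin skeleton of the fibre to the laminin outside it. Repeated endurance exercise is known for its effects on mitochondria, slow fibre proteins and fuel use.

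Libraries that stand apart touch several results and are described first. Counts assigned to genes came to between 30552867 and 37546854 per WT library. Levels are in CPM, a gene's share of its library's counts on the usual per-million scale, with library sizes scaled by edgeR's trimmed mean of M-values (TMM). Fast fibre markers were abundant in every library: Ckm, muscle creatine kinase, stood at 34130, 31690 and 32920 CPM in sedentary 1 to 3 and at 30520 and 32040 CPM in run 1 and 2. Markers of marrow neutrophils and their precursors, 17 of which were tested, summed to 5.35, 4.62 and 324 CPM in sedentary 1 to 3 and to 234 and 169 CPM in run 1 and 2. Sedentary 3 and both run libraries were thus high and the other 2 were near 0. The run libraries of the other genotypes were also high, with 120 and 284 CPM in delEx44 and 103 and 208 CPM in corrected mice. Their sedentary libraries held 27.0 to 60.7 CPM in delEx44 and 6.53 to 11.1 CPM in corrected mice. Camp, the cathelicidin of neutrophil granules, had 0, 0 and 585 counts in the sedentary libraries and 726 and 449 in the run libraries. The 11 tested erythroid markers summed to 14.3, 20.9 and 120 CPM against 93.5 and 57.4 CPM. The 18 bone markers summed to 85.6, 78.0 and 420 CPM against 148 and 108 CPM. The 19 adipocyte markers summed to 3165, 2972 and 4042 CPM against 5194 and 4384 CPM, with run 1 highest. Slow fibre genes summed to 4097, 3714 and 2254 CPM against 4236 and 5373 CPM, with sedentary 3 lowest.

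**Figure D1:**
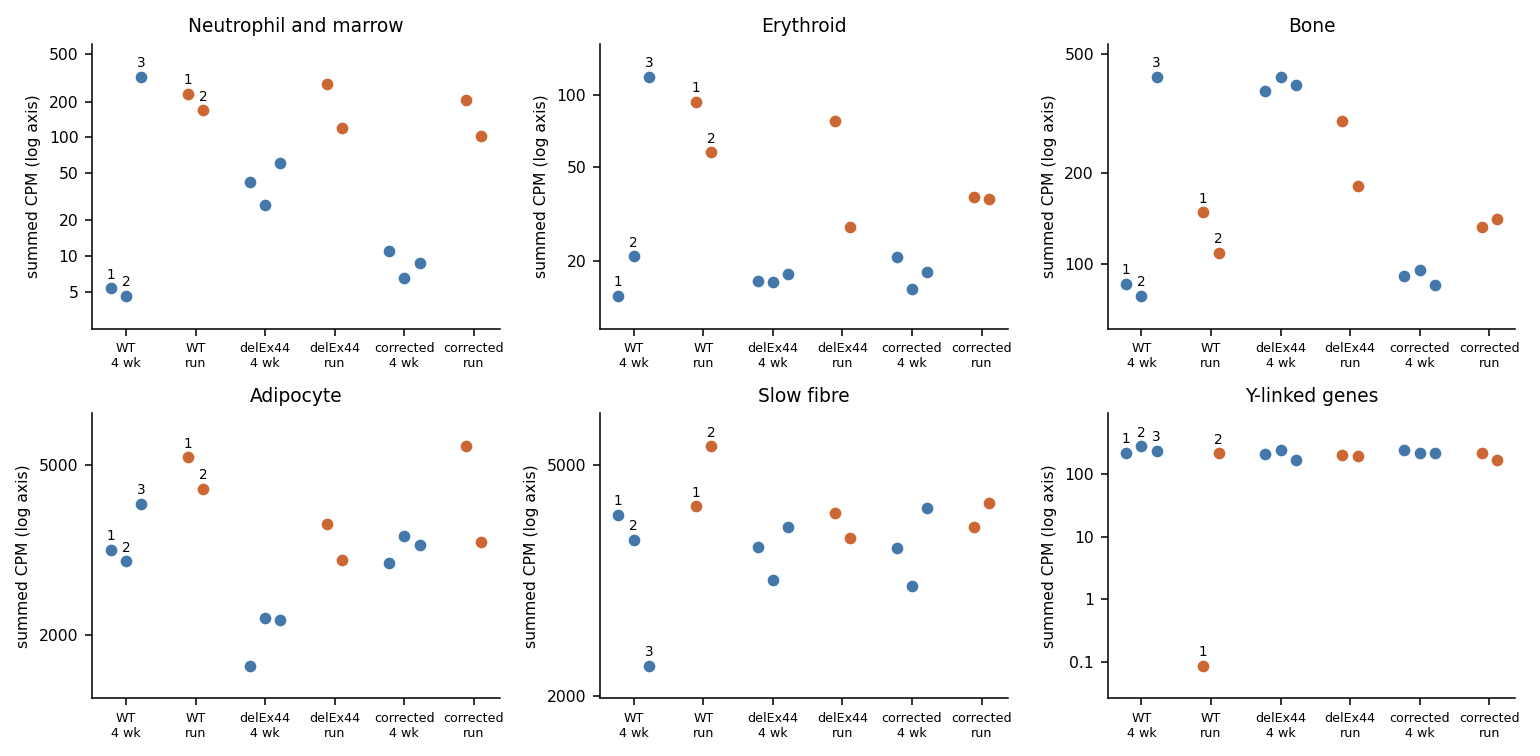
Summed CPM (log axes) of 5 marker lists and of 4 Y-linked genes in each of the 15 libraries of the first count table; each point is 1 library, blue for sedentary 4-week and orange for run 8-week mice, and numbers mark the WT libraries. Sedentary WT 3 is above sedentary WT 1 and 2 for marrow, erythroid and bone markers and below them for slow fibre genes, and run WT 1 lacks Y-linked transcripts.

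Run 1 also differed in Y-linked transcripts: Ddx3y had 1 count and Eif2s3y had 2, while Uty and Kdm5d had 0. Run 2 had 3766, 2233, 737 and 688 counts of these genes, and the remaining 13 libraries of the table had at least 2440, 1878, 723 and 635. Xist, which is expressed from an inactive X chromosome and which overlaps the antisense gene Tsix, had 5 counts in run 1 and 0 to 5 in all others. The labels give no sex. Because of these features, the test was repeated for sedentary 1 and 2 against run 2 alone, called the reduced comparison, in which the lone run library is assumed to vary like the libraries of the other groups. Each list's count is given for both, and a gene that passed with all 5 libraries but not in the reduced comparison has its reduced adjusted p beside it. Run 2 still carries marrow transcripts there: 16 of 17 neutrophil, 9 of 11 erythroid and 6 of 18 bone markers passed the test as higher, against 0, 0 and 0 with all 5 libraries, where 1, 0 and 0 were higher at an unadjusted p under 0.05, DESeq2 called 0 of each and limma-voom called 8, 1 and 0. The part of these transcripts in the other results was not tested.

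Of 15013 genes tested with edgeR's quasi-likelihood test, 2009 were higher (13.4% of those tested) and 2129 were lower (14.2%) in run WT at an adjusted p under 0.05, 27.6% in all, and 39.4% had an unadjusted p under 0.05. These shares are the background for every list below. The change was at least 1 log2 unit in 177 of the higher and 462 of the lower genes. In the reduced comparison 15241 genes were tested, 1054 were higher (6.92%) and 1091 lower (7.16%), and 1953 genes passed in both, 938 of them higher and 1015 lower. An opposite direction in the reduced comparison was seen for 1 of the genes that passed with all libraries. The median log2 fold change over all genes was near 0 (0.0002017).

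**Figure D2:**
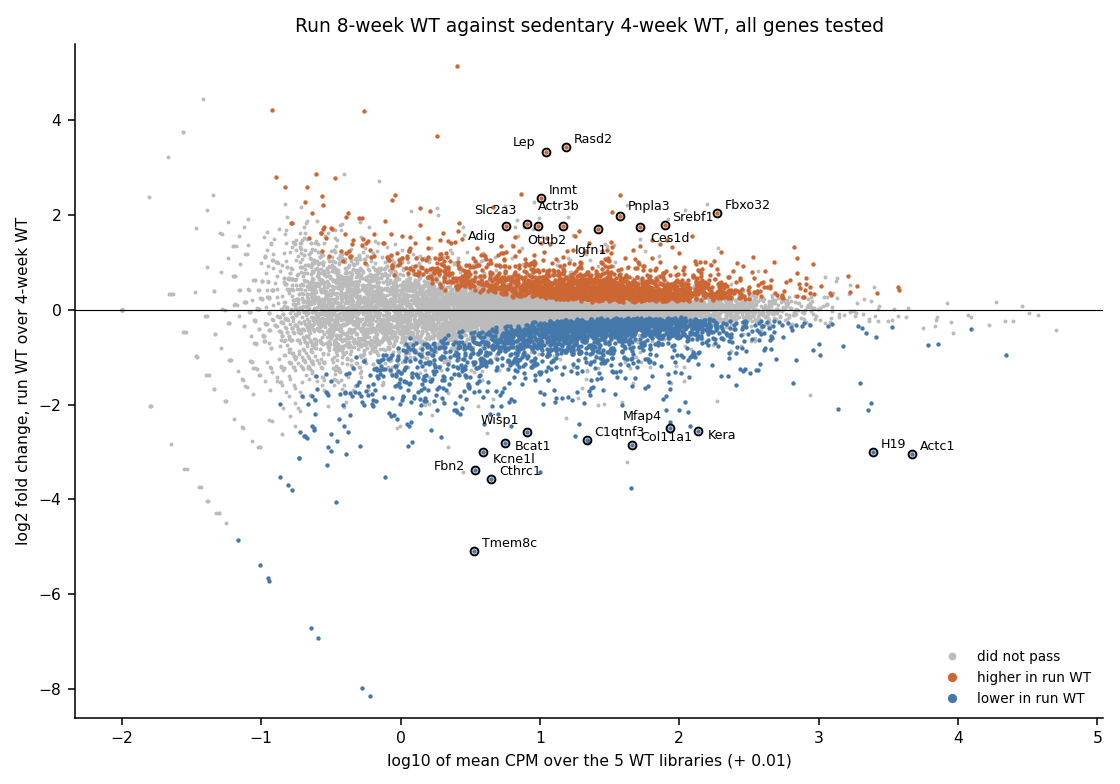
Log2 fold change of run 8-week WT over sedentary 4-week WT (vertical axis) against the log10 of mean CPM over the 5 WT libraries plus 0.01 (horizontal axis); each point is 1 of 15013 genes. Orange and blue points are the 2009 higher and 2129 lower genes, and circles mark the 12 largest rises and 12 largest falls among genes that met the naming rule.

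The largest rises that met the naming rule included a Ras-family GTPase, an atrophy ligase and genes of lipid synthesis. The rule asks for at least 5 CPM in a WT group and groups that do not overlap, among other terms given with the processing. Rasd2, a small GTPase of the Ras family also called Rhes, stood at 3.02, 3.07 and 3.33 CPM in the sedentary libraries and at 33.4 and 34.7 CPM in the run libraries. The groups were far apart, with a log2 fold change of 3.44 ± 0.30 (SE; adjusted p = 5.23e-05), and 3.51 in the reduced comparison. Fbxo32 encodes atrogin-1, the ubiquitin ligase that rises in muscle wasting. Its level was 75.5, 76.7 and 96.1 CPM against 296 and 383 CPM, a rise of 2.04 ± 0.41 (adjusted p = 0.00479). Srebf1, the transcription factor that drives fatty acid synthesis genes, stood at 46.3, 33.5 and 39.5 CPM against 145 and 130 CPM (1.79 ± 0.19, adjusted p = 9.7e-05). Otub2, a deubiquitinase, stood at 6.96, 6.17 and 9.13 CPM against 22.6 and 27.8 CPM (1.76 ± 0.15, adjusted p = 1.89e-05). The groups did not overlap for these 4 genes, as for 53% of all genes tested, and all 4 passed in each of 11 alternative analyses.

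Nqo1, an NADPH-dependent quinone reductase and a standard target of the antioxidant factor Nrf2, had the smallest p of all genes tested. It stood at 10.1, 10.4 and 10.5 CPM in the sedentary libraries and at 30.9 and 34.4 CPM in the run libraries, a log2 fold change of 1.66 ± 0.09 (adjusted p = 1.28e-06) and 1.75 in the reduced comparison. Asb2, a ubiquitin ligase subunit enriched in muscle, stood at 442, 410 and 399 CPM against 952 and 1143 CPM, a rise of 1.33. Slc2a3, a glucose transporter, rose by 1.81 on the log2 scale and Igfn1, a Z-disc protein, by 1.70. The rise of Igfn1 did not pass in the reduced comparison (adjusted p = 0.0535).

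Fat-related genes among the largest rises were higher in run 1 than in run 2. Lep, the adipocyte hormone leptin, stood at 2.52, 0.578 and 3.96 CPM against 37.9 and 9.96 CPM (log2 fold change 3.32 ± 0.75, adjusted p = 0.00874), and its adjusted p was 0.0608 in the reduced comparison. Pnpla3, a lipase-family gene under Srebf1 control, stood at 20.6, 10.5 and 20.4 CPM against 97.7 and 38.6 CPM (1.98, adjusted p = 0.00666; 1.30 and 0.0906 reduced). Both had their highest level in run 1, the library with the highest adipocyte sum. Adig, an adipocyte gene, rose by 1.75 with all libraries and had an adjusted p of 0.0612 in the reduced comparison. Ces1d, a carboxylesterase with close paralogs that could share its reads, rose by 1.74 and passed in both (adjusted p = 0.0259 reduced). The remaining members of the 12 largest rises were Inmt (2.35) and Actr3b (1.77), with adjusted p-values of 0.0589 and 0.101 in the reduced comparison.

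Among the 12 largest falls that met the naming rule were Tmem8c, Actc1 and H19. Tmem8c encodes myomaker, the membrane protein that fuses myoblasts. It stood at 4.19, 5.38 and 6.96 CPM in the sedentary libraries and at 0.237 and 0.0847 CPM in the run libraries, a log2 fold change of -5.08 ± 0.76 (adjusted p = 0.000928) and -5.76 in the reduced comparison. Actc1, the cardiac actin that fetal skeletal muscle also uses, stood at 7583, 6536 and 7713 CPM against 1193 and 566 CPM, a fold change of -3.05 ± 0.33 on the log2 scale (adjusted p = 0.000106). It was among the most abundant transcripts of the younger muscle, and its fall was large in both run libraries. The imprinted long non-coding RNA H19 stood at 4133, 4432 and 2722 CPM against 403 and 544 CPM (-2.99 ± 0.22, adjusted p = 1.14e-05). The other 9 were Cthrc1 (-3.56), Fbn2 (-3.39), Kcne1l (-3.0), Col11a1 (-2.85), Bcat1 (-2.80), C1qtnf3 (-2.74), Wisp1 (-2.57), Kera (-2.56) and Mfap4 (-2.49). Cthrc1, Fbn2, Col11a1, Kera and Mfap4 encode extracellular matrix proteins. All 12 passed, with the same direction, in each of the 11 alternatives. Their direction in 1 of these, the reduced comparison, was set by the naming rule, and the alternatives share libraries. On mm10, from the GENCODE vM21 annotation, Rasd2 lies at chr8:75213944-75224113 (plus strand), Nqo1 at chr8:107388225-107403206 (minus), Actc1 at chr2:114047282-114053548 (minus), H19 at chr7:142575529-142578143 (minus) and Dmd at chrX:82948870-85206141 (plus).

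**Figure D3:**
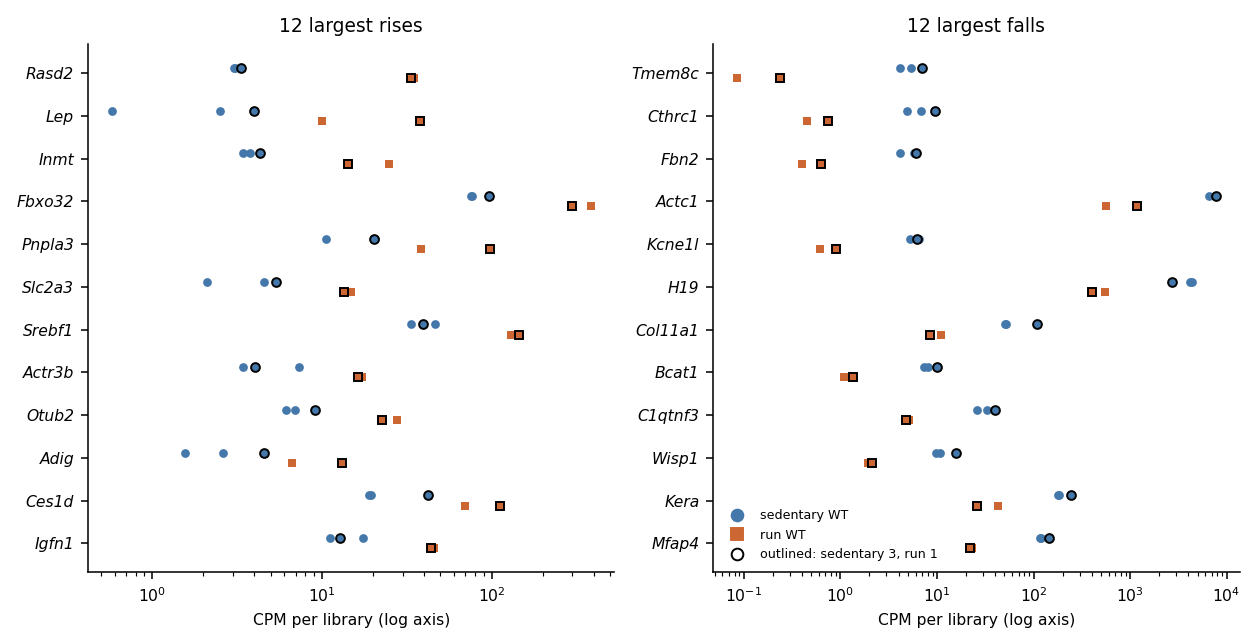
CPM per library (log axes) of the 12 largest rises and the 12 largest falls that met the naming rule; circles are the 3 sedentary and squares the 2 run libraries, and black outlines mark sedentary 3 and run 1. The rule for choosing these genes required groups that do not overlap, and Lep and Pnpla3 are highest in run 1.

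Transcripts that have only a clone or sequence identifier were left out of the 12 by the naming rule. Of these, chosen after their values were seen, C130080G10Rik stood at 72.4, 70.9 and 71.1 CPM against 7.24 and 3.30 CPM (log2 fold change -3.77, adjusted p = 0.000246), and AW551984 at 11.8, 16.7 and 18.6 CPM against 1.45 and 1.5 CPM (-3.41), larger falls than most of the 12. Among genes under 5 CPM, Tmem132b stood at 0.441, 0.253 and 0.268 CPM against 4.18 and 4.01 CPM (3.66, adjusted p = 0.000252).

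Sequences before the start of Actc1 and of the clock gene Cry1 are shown because these genes fell and rose in this comparison and belong to classes with a textbook promoter motif. Both are RefSeq promoters on GRCm38.p6, given 5′ to 3′ on the gene's strand as the 250 bases before the start. Capitals mark a match to the CArG box, the site of serum response factor, in Actc1 (chr2:114052876-114053125, minus strand) and a match to CACGTG, the E-box bound by the clock factors, in Cry1 (chr10:85185055-85185304, minus strand).
Actc1: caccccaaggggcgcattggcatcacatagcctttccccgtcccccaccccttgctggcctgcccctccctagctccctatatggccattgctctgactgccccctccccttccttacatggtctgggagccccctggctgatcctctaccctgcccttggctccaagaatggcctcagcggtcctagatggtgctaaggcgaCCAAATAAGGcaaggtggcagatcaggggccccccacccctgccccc
Cry1: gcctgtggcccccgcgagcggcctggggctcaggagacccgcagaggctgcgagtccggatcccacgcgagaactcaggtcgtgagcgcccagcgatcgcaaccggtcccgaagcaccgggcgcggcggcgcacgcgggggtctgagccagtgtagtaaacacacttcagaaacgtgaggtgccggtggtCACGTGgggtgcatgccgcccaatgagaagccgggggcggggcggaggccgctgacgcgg
The Actc1 match begins 47 bases before the RefSeq start of its gene and the Cry1 match 60 bases before that of Cry1. The printed Actc1 stretch lies inside the GENCODE interval of Actc1 given above, so the RefSeq and GENCODE starts differ. Both strands of 32851 RefSeq promoters were searched over the same 250 bases: 482 (1.47%) held a CArG box and 1978 (6.02%) held CACGTG. A match describes letters only and says nothing of binding.

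Imprinted growth genes fell together. Of 15 tested, 11 were lower and 0 higher, with a median log2 fold change of -0.94, and 10 were lower in the reduced comparison. DESeq2 called 12 lower and limma-voom 11, neither called any higher, and 0 were higher at an unadjusted p under 0.05. Beside H19, Cdkn1c, an imprinted cell cycle inhibitor, stood at 97.8, 103 and 122 CPM against 28.6 and 30.1 CPM (-1.88 ± 0.14, adjusted p = 1.14e-05). The growth factor Igf2 stood at 74.0, 85.2 and 75.2 CPM against 22.2 and 27.9 CPM (-1.64). Mest (-2.41), Rian (-2.10), Plagl1 (-1.87) and Meg3 (-1.33) also fell. The lowest and highest changes among those that passed were H19 and Igf2r (-0.27; adjusted p = 0.303 reduced). Of 13 growth hormone and IGF genes 1 was higher and 1 lower (1 and 1 reduced). Igf1, the growth factor that muscle makes in response to growth hormone and load, stood at 181, 153 and 136 CPM against 48.2 and 33.1 CPM (-1.95 ± 0.26, adjusted p = 0.000424). Stat5b, which carries the growth hormone signal to the nucleus, rose by 0.69.

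Cell cycle genes were lower in 13 of 28 and higher in 0 (median -1.12), and 7 passed as lower in the reduced comparison. DESeq2 called 19 and limma-voom 10 lower and 0 higher, and 0 were higher at an unadjusted p under 0.05. Prc1, a spindle protein, stood at 5.95, 10.1 and 11.8 CPM against 2.23 and 1.19 CPM (-2.44, adjusted p = 0.000747), and Cenpf, a kinetochore protein, fell by 2.19. Sedentary 3, with its marrow transcripts, had the highest level of these genes: the list summed to 160, 245 and 330 CPM in the sedentary and to 152 and 124 CPM in the run libraries. Run 1 and sedentary 1 were therefore close in this sum. In bulk tissue, fewer cells of a type and less RNA per cell cannot be told apart.

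Satellite cell and myogenic genes were lower in 6 of 19 and higher in 1 (4 and 0 in the reduced comparison). Beside Tmem8c, its partner in fusion Gm7325 (myomixer), named after its values were seen, had 11, 8 and 20 counts against 0 and 0 (adjusted p = 0.0124; 0.153 reduced). Myog, the factor of terminal differentiation, stood at 14.7, 21.3 and 30.8 CPM against 6.64 and 5.76 CPM (-1.84, adjusted p = 0.00883; 0.085 reduced). Megf10 (-1.89) and Vcam1 (-1.07), surface proteins of satellite cells and myoblasts, fell in both. Myod1, the master regulator of the myogenic lineage, went the other way, with 13.1, 14.1 and 13.7 CPM against 45.3 and 26.7 CPM (1.40 ± 0.27, adjusted p = 0.00333; 0.97 and 0.082 reduced). Pax7, the satellite cell marker, stood at 4.44, 6.39 and 3.99 CPM against 3.17 and 3.64 CPM and did not pass (adjusted p = 0.087).

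Embryonic and neonatal fibre genes were lower in 6 of 14 and higher in 2 (2 and 1 reduced). With Actc1, Mybph, a myosin-binding protein of young fibres, stood at 703, 988 and 995 CPM against 291 and 318 CPM (-1.56 ± 0.17). Chrng, the fetal subunit of the acetylcholine receptor, stood at 0.850, 1.30 and 1.46 CPM against 0.119 and 0.0847 CPM (-3.52, adjusted p = 0.00679; 0.116 reduced). The embryonic and neonatal myosins Myh3 and Myh8 did not pass. Myh8 stood at 9.92, 8.70 and 11.5 CPM against 4.39 and 6.04 CPM (adjusted p = 0.0891).

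Fast fibre genes were lower in 4 of 19 and higher in 2. The reduced comparison gave the same counts, but its higher genes were not all the same ones. Mylpf, the fast regulatory light chain, stood at 27390, 27950 and 26970 CPM against 14600 and 13670 CPM, a fold change of -0.96 ± 0.11 on the log2 scale (adjusted p = 0.000106). Mybpc2, fast myosin-binding protein C, fell by 0.72 and Casq1, the fast calcium store protein, by 0.75. Mylk2, the skeletal myosin light chain kinase, rose by 0.95. Myh4, the fastest adult myosin, stood at 60370, 50390 and 59360 CPM against 41090 and 43780 CPM and did not pass (adjusted p = 0.0734). Slow fibre genes had a median log2 fold change of 1.16 over 16, but 4 passed as higher, with 11 by DESeq2, 11 by limma-voom and 1 in the reduced comparison. The slow myosin Myh7 stood at 116, 64.5 and 10.9 CPM against 335 and 267 CPM (adjusted p = 0.0555) and the slow troponin Tnni1 at 23.7, 13.7 and 4.11 CPM against 87.7 and 58.8 CPM (2.41, adjusted p = 0.0309; 1.65 and 0.199 reduced). Sedentary 3 had the lowest level of both. The slow fibre gene that was higher in the reduced comparison was not among the 4 given above. Myh7b, a slow-type myosin gene that carries a microRNA, rose by 1.29 (adjusted p = 0.0513 reduced).

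Connective tissue genes had the largest share of lower members among the lists. Of 30 genes for fibrillar collagens and the basement membrane, 27 were lower and 0 higher (median -1.15), and 26 were lower in the reduced comparison. DESeq2 and limma-voom each called 28 lower and 0 higher, and 0 were higher at an unadjusted p under 0.05. Col3a1, the collagen of growing and pliable tissue, stood at 3321, 3485 and 3404 CPM against 959 and 788 CPM (-1.96 ± 0.17, adjusted p = 1.68e-05). Col1a1 stood at 1810, 1662 and 2472 CPM against 527 and 399 CPM (-2.10), and Col1a2, its partner chain, fell by 2.11. Fibril-starting Col5a1 (-1.40) and Col5a2 (-1.59) and the basement membrane linker Nid1 (-0.87) also fell. The list summed to 14930, 14650 and 16560 CPM in the sedentary and to 5739 and 5434 CPM in the run libraries, so that the smallest sedentary sum was well above the largest run sum.

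Genes that process and crosslink collagen were lower in 18 of 23 and higher in 0 (14 lower reduced), with 18 lower and 0 higher both by DESeq2 and by limma-voom, and 0 higher at an unadjusted p under 0.05. Loxl2, a crosslinking oxidase, stood at 113, 112 and 117 CPM against 40.5 and 39.2 CPM (-1.52 ± 0.10, adjusted p = 5.73e-06). Sparc, a collagen chaperone of the matrix, stood at 2502, 2390 and 3237 CPM against 1017 and 827 CPM (-1.55). Fkbp10 (-1.14) and Plod1 (-0.56), which fold and hydroxylate collagen in the endoplasmic reticulum, fell. Matrix proteases and inhibitors were lower in 9 of 21 and higher in 0 (1 by DESeq2, 0 by limma-voom, 1 at an unadjusted p under 0.05), but 4 were lower in the reduced comparison, among them Adamts9 (-1.28) and Mmp23 (-0.88). Of 22 markers of fibro-adipogenic progenitors, the matrix-making cells of muscle, 8 were lower and 1 higher (6 and 1 reduced). Thy1 (-1.16), Mfap5 (-1.04), Lum (-0.97) and Cd34 (-0.75) fell, whereas the list's sum was 4426, 3989 and 4203 CPM against 4123 and 4780 CPM.

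TGF-beta and myostatin genes were higher in 5 of 26 and lower in 3 (0 and 2 reduced, where 5 were higher at an unadjusted p under 0.05). Periostin, Postn, stood at 140, 213 and 176 CPM against 37.5 and 26.8 CPM (-2.46, adjusted p = 0.000496) and Fstl1, a follistatin-like secreted protein, fell by 1.30. Smad7, the inhibitory Smad, rose by 0.82 and Nog, the BMP antagonist noggin, by 0.60, with adjusted p-values of 0.0692 and 0.175 in the reduced comparison. Of 21 cartilage and tendon genes 6 were lower (median -1.41), and the reduced comparison gave 3 lower and 3 higher (median -0.25). Sedentary 3, which carried bone transcripts, had the largest sum of this list, 2136 CPM against 1425 and 1232 CPM in the other sedentary and 904 and 1039 CPM in the run libraries. Tnmd, the tendon protein tenomodulin, stood at 109, 123 and 149 CPM against 21.1 and 27.9 CPM (-2.37) and Mkx, a tendon transcription factor, fell by 1.80, both also in the reduced comparison.

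**Figure D4:**
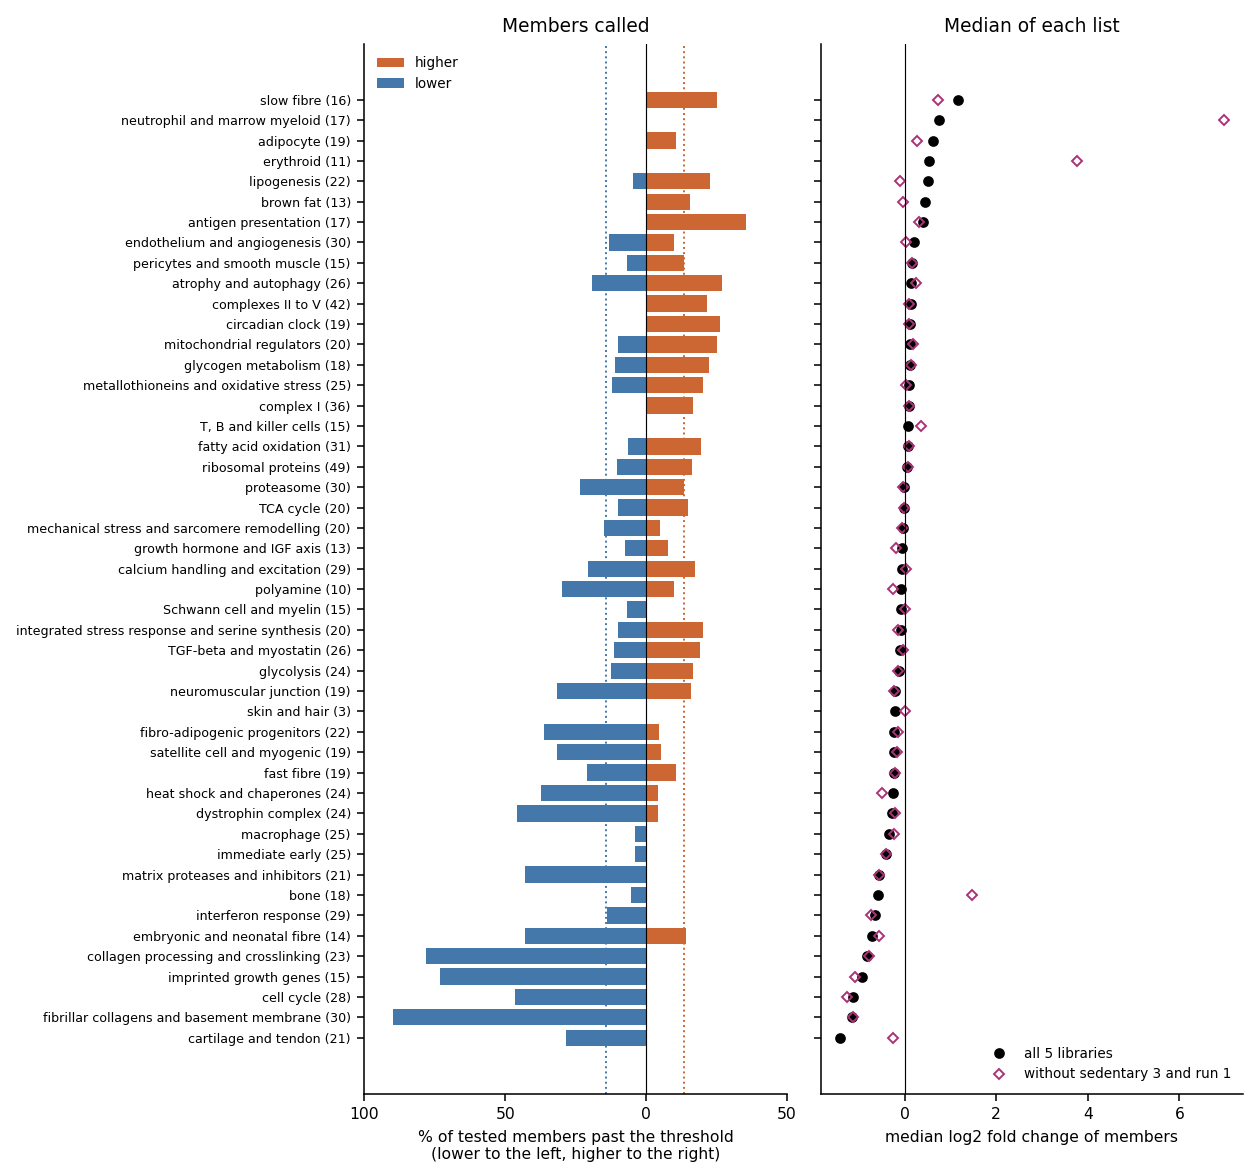
Left, percent of each list's tested members (number in brackets) that passed as higher (orange, right) or lower (blue, left), with dotted lines at the shares of all genes, 13.4% and 14.2%; right, the median log2 fold change of each list with all 5 libraries (black) and without sedentary 3 and run 1 (open diamonds). Collagens (27 of 30), collagen processing (18 of 23) and imprinted genes (11 of 15) have the largest lower shares, and the marrow, erythroid, bone and cartilage medians move most when the 2 libraries are left out.

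Dystrophin complex genes were lower in 11 of 24 and higher in 1 (6 and 1 reduced). Dmd itself, on the X chromosome, stood at 240, 208 and 204 CPM in the sedentary libraries and at 148 and 160 CPM in the run libraries. The groups did not overlap, with a log2 fold change of -0.49 ± 0.09 (adjusted p = 0.00158) and -0.48 in the reduced comparison (adjusted p = 0.0217). Sgcb, beta-sarcoglycan, stood at 272, 265 and 271 CPM against 182 and 178 CPM (-0.58 ± 0.07, adjusted p = 0.000104). The laminin chain Lama2 (-0.89), the integrin chain Itgb1 (-0.81) and the water channel Aqp4 (-1.31), which is anchored by the complex, fell in both comparisons. Nos1, the neuronal nitric oxide synthase that the complex holds at the membrane, was the member that rose: 22.5, 20.1 and 17.3 CPM against 33.7 and 45.1 CPM (0.98 ± 0.19, adjusted p = 0.0027).

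Genes of the neuromuscular junction were lower in 6 of 19 and higher in 3 (3 and 0 reduced, where 3 were higher at an unadjusted p under 0.05). Chrnb1, the beta subunit of the acetylcholine receptor, stood at 61.6, 65.4 and 61.9 CPM against 36.8 and 40.8 CPM (-0.70 ± 0.08, adjusted p = 0.000104). Rapsn, which clusters the receptor, rose by 0.38 (adjusted p = 0.0527 reduced). Calcium handling and excitation genes were higher in 5 of 29 and lower in 6, close to the background (4 and 3 reduced). Srl, sarcalumenin of the calcium store, fell by 0.57 and Asph, which includes junctin, by 0.60, while Kcnj11, a subunit of the ATP-sensitive potassium channel, rose by 0.53. Among genes of mechanical stress, 1 of 20 was higher and 3 were lower (2 and 1 reduced). Murc (cavin-4) fell by 0.66, and by 0.59 in the reduced comparison, and Ankrd1, a stretch-responsive titin partner, stood at 15.2, 40.7 and 21.1 CPM against 6.76 and 8.72 CPM (-1.73, adjusted p = 0.0213; 0.148 reduced).

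Most respiratory chain genes did not pass. Of 36 complex I genes 6 were higher and 0 lower, with a median log2 fold change of 0.10, and of 42 genes of complexes II to V 9 were higher and 0 lower (median 0.13). In the reduced comparison 1 and 2 were higher, below the background there. Of the complex I genes 1 was lower at an unadjusted p under 0.05, and DESeq2 called 1 and limma-voom 0 lower, whereas 0 genes of the other complexes were lower by any of these. Ndufs7, a complex I core subunit, stood at 185, 183 and 172 CPM against 272 and 310 CPM (0.69 ± 0.10, adjusted p = 0.000398), and Atp5e, the epsilon subunit of ATP synthase, at 226, 229 and 210 CPM against 341 and 357 CPM (0.66). Sedentary 3 had the lowest sum of both lists, 7972 and 19690 CPM. Regulators of mitochondria were higher in 5 of 20 and lower in 2 (4 and 1 reduced). Esrra, an orphan receptor that drives oxidative genes, rose by 0.46 and Polrmt, the mitochondrial RNA polymerase, by 0.47, while the fission factor Dnm1l fell by 0.50. Ppargc1a, the coactivator PGC-1alpha, stood at 54.1, 79.3 and 50.5 CPM against 56.1 and 66.7 CPM, with overlapping groups.

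Genes of the TCA cycle, fatty acid oxidation and glycolysis passed at about the background share. TCA cycle genes were higher in 3 of 20 and lower in 2 (3 and 1 reduced). Idh2 rose by 0.86 and Pdk2, the kinase that restrains pyruvate dehydrogenase, by 0.58. Fatty acid oxidation genes were higher in 6 of 31 and lower in 2 (2 and 1 reduced). Cpt1a, the liver-type carnitine palmitoyltransferase, stood at 26.8, 33.1 and 36.6 CPM against 13.9 and 13.4 CPM (-1.24 ± 0.19, adjusted p = 0.000731), while the oxidation enzyme Echs1 rose by 0.63 and the fatty acid transporter Slc27a1 by 0.68. Glycolysis genes were higher in 4 of 24 and lower in 3 (4 and 1 reduced). Slc2a4, the insulin-responsive glucose transporter GLUT4, stood at 523, 526 and 486 CPM against 722 and 852 CPM (0.62 ± 0.13, adjusted p = 0.00357), and Pgk1 fell by 0.64.

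Glycogen genes were higher in 4 of 18 and lower in 2 (1 and 2 reduced). Stbd1, which tethers glycogen to membranes, stood at 120, 130 and 104 CPM against 54.5 and 56.0 CPM (-1.10), and Gaa, the lysosomal glucosidase, rose by 0.43. Ppp1r3b, a glycogen-targeting subunit of protein phosphatase 1, stood at 2.11, 2.42 and 3.39 CPM against 26.8 and 2.00 CPM. It passed with all libraries (2.44, adjusted p = 0.0346), its high level was in run 1 alone, and its log2 fold change was -0.17 in the reduced comparison (adjusted p = 0.824). Lipogenesis genes were higher in 5 of 22 and lower in 1 (3 and 1 reduced), with medians of 0.51 and -0.10. Fasn, fatty acid synthase, stood at 148, 101 and 602 CPM against 885 and 110 CPM, high in sedentary 3 and run 1 and low in the other 3, and did not pass. Srebf1, as given above, Acacb (0.62) and Me1 (0.65) rose in both comparisons. Of 19 adipocyte markers 2 were higher, Lep and Lpl, and in the reduced comparison 0 passed and 2 had an unadjusted p under 0.05. Of 13 brown fat genes 2 were higher, Cox8b (0.40) and Cox7a1 (0.40), which muscle also expresses, with adjusted p-values of 0.147 and 0.122 in the reduced comparison.

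Clock genes were higher in 5 of 19 and lower in 0 (3 and 0 reduced). At an unadjusted p under 0.05, 3 were lower, and DESeq2 and limma-voom called 3 and 2 lower. Cry1, a repressor of the clock whose upstream sequence is printed above, stood at 13.7, 11.3 and 8.15 CPM against 26.9 and 25.8 CPM (1.25 ± 0.20, adjusted p = 0.000902), and Cry2 rose by 0.59. Arntl, the activator Bmal1, stood at 23.0, 24.4 and 17.4 CPM against 46.0 and 52.2 CPM (1.19, adjusted p = 0.0135; 0.0981 reduced). Dbp, an output gene of the clock, stood at 48.2, 53.5 and 87.4 CPM against 14.5 and 28.4 CPM and did not pass (adjusted p = 0.0809). Per2 overlapped between groups. The labels give no hour of harvest.

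Atrophy and autophagy genes were higher in 7 of 26 and lower in 5 (4 and 1 reduced). Beside Fbxo32, Fbxo31 rose by 0.69 and Foxo4, a FoxO transcription factor, by 0.46, whereas Gadd45a fell by 0.73. Trim63, the other well-known atrophy ligase MuRF1, stood at 248, 316 and 248 CPM against 242 and 359 CPM, with overlapping groups (adjusted p = 0.809). Heat shock and chaperone genes were lower in 9 of 24 and higher in 1 (5 and 1 reduced). Hspa8, the constitutive Hsp70, stood at 1077, 1344 and 1151 CPM against 780 and 670 CPM (-0.72 ± 0.12, adjusted p = 0.00084), and the endoplasmic reticulum chaperones Hsp90b1 (-0.92), Calr (-0.69) and Canx (-0.68) fell. Ribosomal protein genes were higher in 8 of 49 and lower in 5 (3 and 0 reduced, where 3 were lower at an unadjusted p under 0.05), and proteasome genes were higher in 4 of 30 and lower in 7 (2 and 2 reduced). With all libraries, every member of both lists that passed changed by less than 0.5 log2 units.

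Among oxidative stress genes 5 of 25 were higher and 3 lower (3 and 1 reduced). With Nqo1, Gpx3 (1.03) and Prdx6 (0.51), which remove peroxides, rose, and Hmox1, heme oxygenase, fell by 1.21. Integrated stress response genes were higher in 4 of 20 and lower in 2 (0 and 1 reduced, where 3 were higher at an unadjusted p under 0.05). Ddit3 (0.93; adjusted p = 0.0684 reduced) and Atf4 (0.39; 0.123 reduced) rose with all libraries, and Psat1, of serine synthesis, fell by 1.21. Polyamine genes were lower in 3 of 10 and higher in 1 (1 and 0 reduced). Azin1, the antizyme inhibitor, fell by 0.96 and Smox, spermine oxidase, rose by 0.79 (adjusted p = 0.262 reduced). Of 25 immediate early genes 1 was lower, Klf6 (-0.55), and 4 were lower in the reduced comparison, above the background of 7.16% there. At an unadjusted p under 0.05, 3 were lower with all libraries and 5 in the reduced comparison.

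MHC class II genes gave the 6 of 17 antigen presentation genes that were higher (0 lower, also by DESeq2, limma-voom and an unadjusted p under 0.05). Cd74, the invariant chain, stood at 49.2, 59.2 and 47.8 CPM against 112 and 96.4 CPM (1.00 ± 0.17, adjusted p = 0.00129), and H2-Ab1, whose reads could be shared with related H2 genes, at 20.1, 25.1 and 18.3 CPM against 48.3 and 38.8 CPM (1.04; adjusted p = 0.0525 reduced). Cd74 was the member that also passed in the reduced comparison (adjusted p = 0.0412). Of 25 macrophage markers 1 was lower, the mannose receptor Mrc1 (86.1, 85.3 and 80.1 CPM against 35.4 and 41.5 CPM, -1.13), and 1 in the reduced comparison. Of 15 lymphocyte markers 0 passed with edgeR, DESeq2 or limma-voom and 2 had an unadjusted p under 0.05, while 2 passed as higher in the reduced comparison and 6 were higher at an unadjusted p under 0.05 there. Interferon response genes were lower in 4 of 29, near the background share, in 11 by DESeq2 and in 1 by limma-voom. In the reduced comparison 0 passed with edgeR and 4 had an unadjusted p under 0.05. Their groups did not overlap, run being lower, in 23 of 29, against 27% of all genes tested. For macrophage markers the same held in 13 of 25. With all 5 libraries DESeq2 called 4 macrophage markers lower and limma-voom 1, and 5 were lower at an unadjusted p under 0.05. The macrophage list summed to 587, 541 and 624 CPM against 451 and 453 CPM.

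Vessel genes were higher in 3 of 30 and lower in 4 (3 and 1 reduced). Vegfb, a growth factor of the VEGF family, stood at 65.5, 66.7 and 52.4 CPM against 104 and 111 CPM (0.81 ± 0.12, adjusted p = 0.000448), and Flt1, its receptor, rose by 0.58. Apln, the peptide apelin of sprouting vessels, stood at 11.6, 20.8 and 12.9 CPM against 4.15 and 3.47 CPM (-1.98). Of 15 Schwann cell genes 1 was lower in both comparisons, Pmp22 (-0.65). Of 15 pericyte and smooth muscle genes 2 were higher, including Lmod1 (0.98), and 1 lower, Myl9 (-0.51), with the same counts in the reduced comparison.

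The same contrast in the other genotypes, 2 run against 3 sedentary libraries each, was set against the WT response by interaction terms in the same fit. Starting levels differed: fast fibre markers summed to 280000 to 303400 CPM in sedentary WT and 134400 to 172000 CPM in sedentary delEx44. Macrophage markers summed to 541 to 624 CPM and 2901 to 4253 CPM there. Their part in the interactions was not tested. For delEx44 against WT 132 genes passed (0.879% of 15013), 88 with a more positive (0.586%) and 44 with a more negative response (0.293%) in delEx44. At an unadjusted p under 0.05 there were 2642 genes (17.6%), DESeq2 called 718 (4.78%) and limma-voom 118 (0.786%). Leaving out single WT libraries gave between 11 (without run 1) and 167 (without sedentary 3), with 43, 25 and 61 without sedentary 1, sedentary 2 and run 2, and leaving out sedentary 3 and run 1 together gave 5. For corrected against WT 0 passed (0%) with edgeR and limma-voom, while 1035 had an unadjusted p under 0.05 (6.89%) and DESeq2 called 26 (0.173%).

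Otub2 rose in WT by 1.76 and stood at 5.72, 5.52 and 6.20 CPM in sedentary delEx44 and 6.61 and 6.23 CPM in run delEx44 (log2 fold change 0.14). The difference of the responses was -1.62 ± 0.23 (adjusted p = 0.0131), and it passed in 10 of 10 alternatives, with -1.94 in the reduced comparison. Dapp1, an adaptor of phosphoinositide signalling, rose in WT (1.13) and fell in delEx44 (-0.55; difference -1.68, adjusted p = 0.0121), and 0610040J01Rik rose in WT (0.69) and fell in delEx44 (-0.85; difference -1.54, adjusted p = 0.00597). These 3 also passed in the reduced comparison. Asb2 stood at 260, 331 and 303 CPM in sedentary and 369 and 297 CPM in run delEx44, a difference from the WT rise of -1.17 (adjusted p = 0.0172; 0.0585 reduced).

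Arntl and Myod1 changed in opposite directions in these genotypes. Arntl rose in WT (1.19) and stood at 35.1, 30.9 and 29.9 CPM in sedentary and 8.22 and 14.5 CPM in run delEx44 (-1.50), a difference of -2.68 ± 0.44 (adjusted p = 0.0276; 0.134 reduced). Myod1 stood at 64.9, 43.4 and 39.9 CPM in sedentary and 20.9 and 30.9 CPM in run delEx44 (-0.93), a difference of -2.33 (adjusted p = 0.0276; 0.15 reduced). Ctxn3, a small membrane protein, rose more in delEx44 (3.01) than in WT (0.59; difference 2.42, adjusted p = 0.00597; 0.0568 reduced). The fall of Mybph in WT (-1.56) was not seen in delEx44 (0.08; difference 1.64, adjusted p = 0.0135; 0.0942 reduced). For Dmd the difference of responses did not pass (0.55, adjusted p = 0.0598): its delEx44 levels were 36.1, 41.8 and 41.2 CPM sedentary and 40.7 and 41.8 CPM run.

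**Figure D5:**
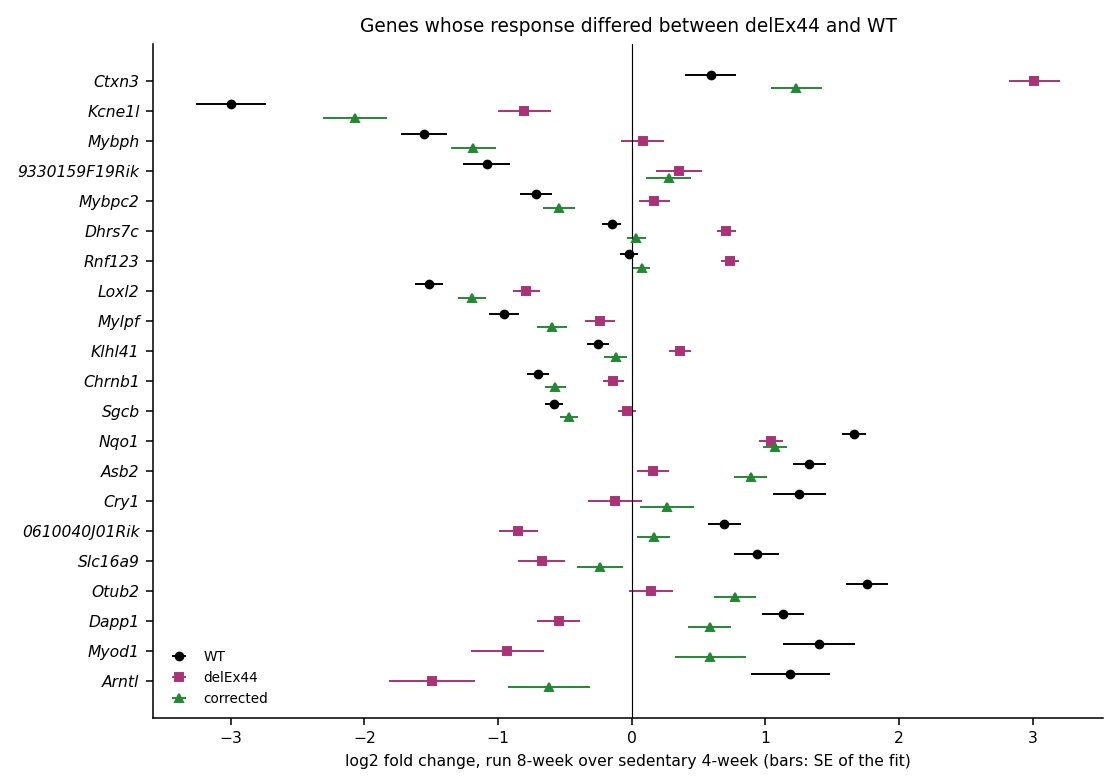
Log2 fold change of run 8-week over sedentary 4-week quadriceps in WT (black circles), delEx44 (purple squares) and corrected mice (green triangles) for 21 genes whose response differed between delEx44 and WT; bars are the standard errors of the fit, over 2 against 3 libraries per genotype. Otub2, Dapp1 and Arntl lie right of 0 in WT, and Dapp1 and Arntl lie left of it in delEx44.

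Gm15446, a predicted zinc finger gene, had 36, 18 and 27 counts in the sedentary and 0 and 0 in the run WT libraries, which puts it at least 20.1-fold lower, with the run level taken as 3 counts over the group. The delEx44 and corrected libraries of the same table had 29 to 51 counts of it, and the 18-month WT libraries 17 to 32. Its response differed from that of delEx44 (adjusted p = 0.00597), and against corrected mice the adjusted p was 0.0514. Reads of a zinc finger gene can be shared with close copies.

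Sedentary WT quadriceps at 18 months, from the second count table, was scaled with the other libraries and gives a level of older, unrun muscle. It is a description, since it shares the 4-week libraries with the comparison above and differs in age and in table. The genes below are selected examples, and the share of genes with each pattern was not counted. Actc1 had means of 7386 CPM at 4 weeks, 888 CPM in run mice at 8 weeks and 36.7 CPM at 18 months, Col3a1 of 3454, 882 and 333 CPM, and Mylpf of 27840, 14280 and 8293 CPM. Rasd2 had means of 3.19, 34.4 and 72.8 CPM and Fbxo32 of 84.0, 344 and 674 CPM. For these 5 genes the run level lay between the 2 sedentary ages. Srebf1 had means of 40.4, 139 and 28.7 CPM, Arntl of 21.9, 49.6 and 19.5 CPM, Asb2 of 424, 1059 and 541 CPM, and Myod1 of 13.9, 36.4 and 12.5 CPM. These 4 were highest in the run mice. Dmd, with means of 220, 156 and 373 CPM, was lowest in the run mice, and Igf1 (159, 41.1 and 46.3 CPM) had similar means in run and 18-month muscle.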

How the data were processed

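RNA from flash-frozen quadriceps was made into TruSeq libraries, per the labels' protocols. The authors deposited gene-level read counts in 2 tables. The submitters' processing notes name STAR 2.7.2b, Bowtie2 2.3.4.3, HTSeq, edgeR, SAMtools 1.9, Trim Galore and the mouse build mm10. Which aligner fed the counts, and the annotation and strand setting: not given in the sources used here. Records that name no gene (30.6 to 34.2% of records in the WT libraries) were left out. Counts of the 15 libraries of the first table were filtered (filterByExpr), TMM-scaled and fitted with 1 mean per group by edgeR 4.0.16 in R 4.3.3 (robust quasi-likelihood F-test, Benjamini-Hochberg adjustment, threshold 0.05). A standard error is the log2 fold change divided by the square root of F. CPM were computed here. DESeq2 1.42.0, limma-voom (limma 3.58.1), other scaling, no filter, the 5 WT libraries alone and leaving out libraries were alternatives. The fit was tested on simulated data.

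Genes named as largest had an adjusted p under 0.05, an unadjusted p under 0.05 in the same direction in the reduced comparison, at least 5 CPM in a WT group, no overlap, and no predicted-gene or clone identifier as a name. Up to 4 members per list had the smallest p. Other genes were chosen with values seen, and some that met the rule are not reported here. The comparison, the 48 lists (1038 distinct genes) and the tests were chosen with earlier results of these data known, so list counts are descriptions. Of 230 named genes, 223 matched GENCODE once. Some genes printed above, such as Ckm, Pax7, Myh4 and Trim63, lie outside this set, and some of its members are not printed.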

Additional observations from a re-analysis of the deposited data

Results flagged for a closer look

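Results listed here are named genes whose WT response differed from that of delEx44 mice by a test of the interaction (edgeR, adjusted p under 0.05). Dhrs7c, Ctxn3, Rnf123, Gm15446, 0610040J01Rik, Dapp1, Otub2 and Asb2 were named for the smallest p of this same test. Their place here follows from that choice. Dhrs7c and Rnf123 did not pass in the WT comparison itself (edgeR, adjusted p = 0.136 and 0.848). Values are the delEx44 response minus the WT response on the log2 scale, over 2 run and 3 sedentary libraries per genotype. Responses were more positive in delEx44 for the following genes. Of fibre genes, Mybph differed by 1.64, Mylpf by 0.72, Mybpc2 by 0.89 and Klhl41 by 0.62. Sgcb differed by 0.55 and Chrnb1 by 0.56. The crosslinking enzyme Loxl2 differed by 0.73. Kcne1l, a potassium channel subunit gene, differed by 2.19, Ctxn3 by 2.42, the reductase-family gene Dhrs7c by 0.86, the ubiquitin ligase Rnf123 by 0.76 and the unnamed 9330159F19Rik by 1.44. Gm15446 differed by 8.29, a fitted value that depends on the prior count because the run WT libraries had 0 counts.

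Genes with a more negative response in delEx44 were Arntl (-2.68), Cry1 (-1.38), Myod1 (-2.33), Dapp1 (-1.68), Otub2 (-1.62), the transporter Slc16a9 (-1.61), 0610040J01Rik (-1.54), Asb2 (-1.17) and Nqo1 (-0.62). Nqo1 rose in both genotypes. Of the 22 genes, Otub2, Dapp1 and 0610040J01Rik passed in the reduced comparison, and the highest adjusted p over the alternatives was 0.0337, 0.0326 and 0.0225. For Mylpf and Nqo1, 2 and 3 of 10 alternatives passed. Marrow markers were high in sedentary WT 3 and in both run WT libraries. They were also high in run delEx44 (120 and 284 CPM) beside sedentary delEx44 (27.0 to 60.7 CPM). Fast fibre markers summed to 280000 to 303400 CPM in sedentary WT and 134400 to 172000 CPM in sedentary delEx44. In run mice they summed to 236900 to 243800 CPM and 199300 to 212100 CPM. Macrophage markers summed to 541 to 624 CPM in sedentary WT and 2901 to 4253 CPM in sedentary delEx44. Their run sums were 451 to 453 CPM and 1840 to 1995 CPM. The part of these marker levels in the differences was not tested.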

How the results depend on the processing

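Of the 174 named genes that passed in the WT comparison, 105 passed with the same sign in all 11 alternatives. Many were named for a small p, and the largest changes had to keep their direction in the reduced comparison, 1 of the alternatives. Their share therefore does not describe all genes that passed. Genes that passed numbered 4138, and between 2216 and 3676 when 1 WT library was left out, 2488 without run 1 and 2216 without run 2. Sedentary 3 and run 1 left out together gave 2145. Higher genes ranged from 1089 to 1777 and lower genes from 1127 to 1926 with 1 library left out (1242 and 1246 without run 1), and were 1054 and 1091 with both left out. Leaving out run libraries leaves 1 run library, so the spread rests on the other groups.

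Interactions were less stable. For delEx44 minus WT 132 passed, with 718 by DESeq2, 11 to 167 without 1 WT library and 5 with both left out. For corrected minus WT 0 passed, with 1 under relative log expression scaling, 1 without the filter, 26 by DESeq2, 0 to 5 without 1 WT library and 5 without run 2. Signs turned for Ppp1r3b (-0.40 without run 1 to 3.34 without run 2, and -0.17 with both left out) and for Fasn (-1.37 without run 1 to 2.00 without sedentary 3, and -0.18 with both left out). No paired analysis was possible because the labels link no sedentary WT library to a run WT library. The cause of these shifts was not tested. Genes with few counts, such as Gm7325, are limited by depth.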
